A study of Mus musculus with 16 samples.

Results

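The 40 genes described here encode the proteins that let calcium into the cytosol of a neuron and take it out again: the pore-forming, alpha2delta, beta and gamma subunits of voltage-gated calcium channels, the ryanodine and IP3 receptors of the endoplasmic reticulum, the calcium pumps of the reticulum and of the plasma membrane, the STIM and ORAI proteins and the sodium-calcium exchangers. They were chosen by symbol, and each of the 40 symbols matched 1 gene of the table, which holds 55450 genes. All 40 had 10 or more counts in each of the 16 libraries and were among the 19363 genes tested, so that the filter on low counts removed none of them.

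The counts came from striatal mRNA of 16 male mice on a C57Bl/6 background, aged 14 weeks and untreated, with 1 library per mouse. R6/1 mice carry a transgene with the first exon of the human huntingtin gene and an expanded CAG repeat, a model of Huntington's disease, and their wild-type (wt) littermates carry no transgene. Within each genotype the study took the mice at both ends of a behavioural scoring of rotarod performance, feet clasping and weight, which gave the groups wt “good”, wt “poor”, R6/1 “good” and R6/1 “poor”, with 4 mice each. A “good” and a “poor” mouse are therefore extremes of a range, and the counts of a whole striatum mix neurons with glia and vessels.

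In a neuron, depolarization opens voltage-gated calcium channels, and metabotropic receptors make IP3, which opens the release channels of the reticulum. Pumps and exchangers then return the cytosolic level to rest, and the STIM proteins sense an empty store and open ORAI channels for its refilling. The medium spiny neurons that make up most of the striatum are known for a high content of the type 1 IP3 receptor, and their calcium handling has long been studied in models of Huntington's disease.

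Total counts ran from 16155356 to 24897354 per library, and the libraries numbered 1 to 8 in the deposited table (16155356 to 20250680 counts) did not overlap with those numbered 9 to 16 (21529188 to 24897354 counts). All 4 R6/1 “good” libraries and R6/1 “poor” mouse 2 belong to the first set, and the other R6/1 “poor” mice belong to the second. Levels are given as CPM, the counts of a gene per total of a library scaled by its TMM factor, and differences as log2 fold changes of edgeR with their standard errors (SE). A gene was called where its p, adjusted over the 19363 genes by the Benjamini-Hochberg method, was under 0.05. In the table, the fewest counts of any of the 40 genes in any library were 57, for Cacna2d4.

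The levels of the 40 genes spanned a wide range in wt mice. Per kilobase of exons, the sarco/endoplasmic reticulum pump Atp2a2 was the highest, at 145 ± 14.2 CPM (SD, n = 8), followed by the plasma membrane pump Atp2b1 at 76.9 ± 12.2, the IP3 receptor Itpr1 at 61.9 ± 8.27 and the plasma membrane pump Atp2b2 at 52.8 ± 4.59. The means of Itpr1 and Atp2b2 lay about 1 SD apart, and those of Cacnb3, at 47.7 ± 8.73, and the exchanger Slc8a2, at 45.99 ± 4.60, differed by less than their SDs. Among the pore-forming subunits Cacna1e was the highest, at 15.5 ± 1.06, and Cacna1g the lowest, at 3.22 ± 1.25. The lowest of all 40 genes were Itpr3 at 0.806 ± 0.173 and Cacna2d4 at 0.521 ± 0.0846. In R6/1 mice Atp2a2 and Atp2b1 kept the first and the second rank, while Itpr1 went from rank 3 to rank 5 and Ryr1 from rank 33 to rank 39.

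More of these genes were lower than higher in R6/1 striatum. Of the 40 genes, 22 were lower and 4 were higher in the 8 R6/1 than in the 8 wt mice, and 14 did not pass the test, whereas 17.0% of all genes tested were called lower, 17.2% higher and 34.2% in either direction. Among the better counted genes, with 50 or more counts in 4 or more libraries, 21.3% were called lower and 41.3% in either direction. The log2 fold change was negative for 30 of the 40 genes, with a median of -0.25, while its median over all genes tested was 0.02. For 10 of the 40 genes the CPM of every R6/1 mouse lay below those of every wt mouse, a separation that 5.03% of all genes showed, and for 0 of the 40 they lay above, which 4.05% of all genes showed (9.07% in either direction). These 10 were Cacna1e, Cacna2d3, Cacnb1, Cacng3, Cacng4, Ryr1, Itpr1, Atp2a2, Atp2b1 and Atp2b2. The heat map of the 40 genes over the 16 mice shows these levels gene by gene.

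**Figure D1:**
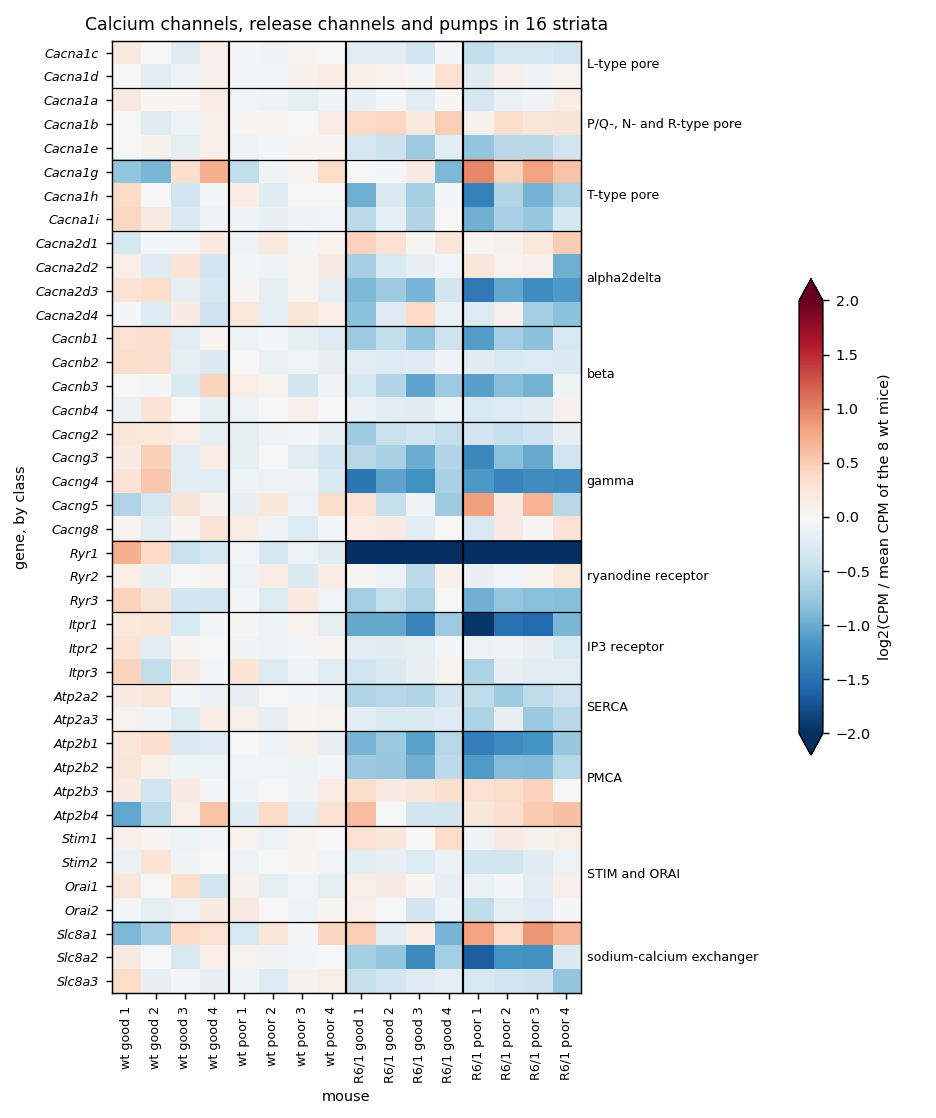
Heat map of the 40 genes (rows, by class) in the 16 mice (columns, by group), coloured by log2 of the CPM over the mean CPM of the 8 wt mice, with colours saturating at 2 and -2. Ryr1 is dark in all 8 R6/1 mice, where it ran from 7.74 to 13.9 CPM, and Cacna1g and Slc8a1 are red in the R6/1 “poor” mice.

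The marker genes of medium spiny neurons moved with this result. All 10 of 10 markers (among them Ppp1r1b, Drd1, Drd2, Penk and Pde10a) were lower in R6/1 mice, with a median log2 fold change of -1.68, and their summed CPM ran from 5698 to 8918 in wt “good”, 5713 to 7286 in wt “poor”, 2112 to 3396 in R6/1 “good” and 1351 to 2006 in R6/1 “poor” mice. Each of the 10 markers was counted in all 16 libraries. In whole tissue, fewer cells of a type and less RNA per cell cannot be told apart. Of the markers of other cells, 5 of 6 of astrocytes, 6 of 6 of microglia, 6 of 6 of endothelial cells, 3 of 6 of oligodendrocytes, 3 of 6 of pericytes and smooth muscle, 5 of 6 of GABAergic interneurons and 4 of 6 of cholinergic interneurons were also called lower, and none of these was called higher. In the remaining lists 1 of 8 cortical markers was called lower, and 0 of 6 thalamic, 0 of 5 hypothalamic and 0 of 6 ependymal markers were called. The median log2 fold changes of these lists were 0.25, -0.0096, 0.51 and 0.14. The part of the cell type markers in the fall of the calcium genes was not tested.

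The ryanodine receptors are release channels of the reticulum, with Ryr1 best known from skeletal muscle and Ryr2 from the heart. Ryr1 (ENSMUSG00000030592, chr7:29003344-29125179, GRCm38) had the largest difference of the 40 genes. It was at 145, 117, 65.1 and 69.3 CPM in the wt “good” mice and 84.9, 70.4, 81.8 and 74.7 CPM in the wt “poor” mice, and at 11.5, 9.52, 10.2 and 13.3 CPM in the R6/1 “good” mice and 7.74, 13.9, 10.1 and 9.90 CPM in the R6/1 “poor” mice. The lowest wt mouse was thus more than 4 times the highest R6/1 mouse, and the level in R6/1 mice was 8.22 times lower (log2 fold change -3.04, SE 0.18, adjusted p = 2.34e-08). Ryr3 was at 269, 233, 150.1 and 148 CPM in the wt “good” mice and 192, 162, 223 and 188 CPM in the wt “poor” mice, and at 121, 141, 127 and 194 CPM in the R6/1 “good” mice and 100, 114, 109.8 and 109 CPM in the R6/1 “poor” mice. It fell as well (log2 fold change -0.63, SE 0.15, adjusted p = 0.00308), but R6/1 “good” mouse 4 lay among the wt mice. The gene Aven overlaps 4.83% of the exon bases of Ryr3 on the opposite strand and had 6.58% as many counts. Ryr2 did not pass the test (log2 fold change -0.045, SE 0.09, adjusted p = 0.732), and its means were 109.5 ± 12.4 CPM in wt and 106 ± 15.4 CPM in R6/1 mice (SD, n = 8 each). As a share of the 3 receptors' summed CPM per kilobase, Ryr1 took 21.9% ± 2.65 in wt and 4.57% ± 0.758 in R6/1 mice (SD, n = 8 each), and Ryr2 took 21.6% ± 4.70 and 34.3% ± 5.47. An antisense gene, Gm26604, overlaps 3.96% of the exon bases of Ryr1 and had 1.49% of its counts. Within libraries 9 to 16, where every R6/1 mouse is “poor”, the log2 fold change of Ryr1 was -3.14 (SE 0.22). Within libraries 1 to 8, which hold all R6/1 “good” mice and 1 “poor” mouse, it was -3.10 (SE 0.25).

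Promoter sequences are shown so that members that fell and members that rose can be set side by side. Of the 40 genes, 31 had promoter windows in RefSeq (GRCm38.p6), 43 windows in all. The 250 bases before the start are printed 5′ to 3′ on the strand of the gene, in lower case, for 4 genes that fell and 2 that rose and whose RefSeq start lay within 30 bases of the annotated gene start. Capitals mark matches, on either strand, to the letters of 6 motifs: the CCAAT box (CCAAT), the TATA box (TATAAA), the cyclic AMP response element (TGACGTCA), the GC box (GGGCGG), an E-box (CAGCTG) and an Egr site (GCGGGGGCG), which overlaps the GC box where a further G follows.
Ryr1, lower, chr7:29125152-29125401, minus strand: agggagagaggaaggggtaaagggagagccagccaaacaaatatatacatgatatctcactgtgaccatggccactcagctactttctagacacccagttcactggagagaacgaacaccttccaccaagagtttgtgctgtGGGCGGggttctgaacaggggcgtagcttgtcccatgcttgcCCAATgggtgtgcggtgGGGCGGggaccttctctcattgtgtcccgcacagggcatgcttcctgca
Cacna2d3, lower, chr14:29721865-29722114, minus strand: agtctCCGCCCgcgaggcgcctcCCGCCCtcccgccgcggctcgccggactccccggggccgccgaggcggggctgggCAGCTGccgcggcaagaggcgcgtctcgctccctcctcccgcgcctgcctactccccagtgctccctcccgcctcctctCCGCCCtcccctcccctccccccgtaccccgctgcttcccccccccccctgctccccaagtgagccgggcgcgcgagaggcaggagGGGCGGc
Slc8a2, lower, chr7:16129576-16129825, plus strand: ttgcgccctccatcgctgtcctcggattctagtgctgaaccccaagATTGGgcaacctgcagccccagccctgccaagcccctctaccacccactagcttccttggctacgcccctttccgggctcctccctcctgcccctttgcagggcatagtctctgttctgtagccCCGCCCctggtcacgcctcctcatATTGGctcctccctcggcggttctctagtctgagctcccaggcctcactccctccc
Cacna1i, lower, chr15:80286988-80287237, plus strand: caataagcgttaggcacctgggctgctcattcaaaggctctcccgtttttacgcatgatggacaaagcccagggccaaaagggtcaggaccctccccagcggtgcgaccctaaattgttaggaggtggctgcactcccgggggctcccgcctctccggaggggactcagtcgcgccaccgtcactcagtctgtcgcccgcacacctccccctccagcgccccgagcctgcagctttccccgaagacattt
Cacna1b, higher, chr2:24763153-24763402, minus strand: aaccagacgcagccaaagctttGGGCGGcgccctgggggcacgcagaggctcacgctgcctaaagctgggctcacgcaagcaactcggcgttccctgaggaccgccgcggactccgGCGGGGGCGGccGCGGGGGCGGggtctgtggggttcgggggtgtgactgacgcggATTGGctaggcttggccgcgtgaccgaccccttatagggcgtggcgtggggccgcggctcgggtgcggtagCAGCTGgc
Cacna2d1, higher, chr5:15934441-15934690, plus strand: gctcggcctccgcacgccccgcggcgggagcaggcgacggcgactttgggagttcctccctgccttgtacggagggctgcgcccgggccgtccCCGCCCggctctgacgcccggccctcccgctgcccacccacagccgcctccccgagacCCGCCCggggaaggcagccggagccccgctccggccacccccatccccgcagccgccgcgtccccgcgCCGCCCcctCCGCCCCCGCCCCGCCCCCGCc
The GC box was in 55.8% of the 43 windows of these genes and in 32.7% of all 32851 windows, and the windows' median GC content was 63.2% against 52.4%. Of the 6 printed sequences, Cacna1i held none of the searched letters, and the GC box was found 2 times in Ryr1, 4 times in Cacna2d3, 1 time in Slc8a2, 3 times in Cacna1b and 6 times in Cacna2d1. It was thus present both in genes that fell and in genes that rose. The CCAAT box was in 27.9% of the members' windows and 33.8% of all, the TATA box in 2.33% and 12.4%, the Egr site in 11.6% and 2.57%, and the cyclic AMP response element in 0.0% and 1.55%. The E-box was in 23.3% of the members' windows and 13% of all.

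The IP3 receptors release calcium from the reticulum in answer to metabotropic signals, and Itpr1 is the form that medium spiny neurons hold in quantity. Itpr1 (ENSMUSG00000030102, chr6:108213096-108551109) was at 1311, 1347, 904 and 1101 CPM in the wt “good” mice and 1162, 1058, 1193 and 991 CPM in the wt “poor” mice. In R6/1 mice it was at 556, 560.2, 455 and 688 CPM in the “good” and 294, 403, 386 and 604 CPM in the “poor” animals. No R6/1 mouse reached the lowest wt mouse (log2 fold change -1.20, SE 0.14, adjusted p = 9.67e-06), and the level was 2.30 times lower. Itpr2 was at 38.4, 27.3, 32.9 and 31.9 CPM in the wt “good” mice and 30.2, 29.6, 30.9 and 33.2 CPM in the wt “poor” mice, and at 27.5, 26.8, 27.8 and 30.8 CPM in the R6/1 “good” mice and 29.7, 30.3, 28.4 and 25.6 CPM in the R6/1 “poor” mice. Its groups overlapped and its difference was small (log2 fold change -0.16, SE 0.062, adjusted p = 0.0483), and the call was lost in 10 of the 16 fits that left out 1 mouse. Itpr3 did not pass the test (log2 fold change -0.23, SE 0.13, adjusted p = 0.168). Itpr1 made up 95.4% ± 0.798 of the 3 receptors' summed CPM per kilobase in wt and 90.7% ± 2.44 in R6/1 mice (SD, n = 8 each).

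Both pumps of the reticulum fell. Atp2a2 (ENSMUSG00000029467, chr5:122453513-122502225), the main pump that refills the store, was at 986, 1035, 867 and 803 CPM in the wt “good” mice and 786, 883, 861 and 836 CPM in the wt “poor” mice, and at 579, 596, 580.5 and 679.7 CPM in the R6/1 “good” mice and 623, 537, 622 and 661 CPM in the R6/1 “poor” mice. The R6/1 and wt mice did not overlap (log2 fold change -0.53, SE 0.063, adjusted p = 5.18e-06). Atp2a3 was at 12.5, 11.4, 9.92 and 13.3 CPM in the wt “good” mice and 12.96, 10.7, 12.4 and 12.6 CPM in the wt “poor” mice, and at 10.4, 9.71, 9.81 and 10.04 CPM in the R6/1 “good” mice and 7.74, 10.8, 7.17 and 8.14 CPM in the R6/1 “poor” mice, a lower level with 3 R6/1 mice inside the wt range (log2 fold change -0.38, SE 0.093, adjusted p = 0.00398). Atp2a2 made up 98.4% ± 0.247 of their sum per kilobase in wt and 98.3% ± 0.338 in R6/1 mice.

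Of the 4 plasma membrane pumps, which export calcium from the cell, 2 fell, 1 rose and 1 did not pass the test. Atp2b1 (ENSMUSG00000019943, chr10:98914406-99026143) was at 1366, 1482, 961 and 978 CPM in the wt “good” mice and 1179, 1113, 1237 and 1041 CPM in the wt “poor” mice. In the R6/1 mice it was at 612, 697, 558 and 788 CPM in “good” and 452, 496, 509.9 and 695 CPM in “poor” animals. Every R6/1 value lay below every wt value (log2 fold change -0.96, SE 0.12, adjusted p = 9.31e-06). Atp2b2 (ENSMUSG00000030302, chr6:113743831-114042613), a form known from neurons with fast calcium clearance, was at 785, 721, 628 and 622 CPM in the wt “good” mice and 644, 638, 626 and 658 CPM in the wt “poor” mice, and at 399.7, 393, 343 and 462 CPM in the R6/1 “good” mice and 304, 365, 360.2 and 449 CPM in the R6/1 “poor” mice. Here too the genotypes did not overlap (log2 fold change -0.79, SE 0.078, adjusted p = 8.46e-07). Atp2b3 rose from 59.5 ± 7.39 to 72.3 ± 7.05 CPM (SD, n = 8 each) with overlapping mice (log2 fold change 0.28, SE 0.078, adjusted p = 0.00905). Atp2b4 varied among the mice of each group, from 54.3 to 166 CPM in wt and 85.3 to 171 CPM in R6/1 mice (log2 fold change 0.24, SE 0.22, adjusted p = 0.411). Per kilobase, Atp2b1 took 50.6% ± 4.08 of the 4 pumps' sum in wt and 40.97% ± 4.11 in R6/1 mice, and Atp2b3 took 8.24% ± 1.36 and 15.9% ± 2.67.

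Of the 3 sodium-calcium exchangers, which use the sodium gradient to export calcium, 2 fell and 1 did not pass the test. Slc8a2 (ENSMUSG00000030376, chr7:16129826-16161063), a brain form, was at 273, 242, 193 and 264 CPM in the wt “good” mice and 254, 230.0, 239 and 240.4 CPM in the wt “poor” mice, and at 153, 140.1, 99.7 and 152 CPM in the R6/1 “good” mice and 77.2, 106, 104 and 199 CPM in the R6/1 “poor” mice. It fell (log2 fold change -0.91, SE 0.15, adjusted p = 0.000207), with R6/1 “poor” mouse 4 as the only R6/1 animal inside the wt range. That mouse had the highest summed cortical markers of all 16 mice, 831 CPM, and their part in its values was not tested. Slc8a3 was at 72.7, 51.1, 55.2 and 50.1 CPM in the wt “good” mice and 53.9, 46.8, 60.05 and 60.99 CPM in the wt “poor” mice, and at 41.1, 43.2, 47.3 and 49.4 CPM in the R6/1 “good” mice and 45.04, 42.5, 41.95 and 32.6 CPM in the R6/1 “poor” mice. It was lower as well, with 2 R6/1 “good” mice inside the wt range (log2 fold change -0.39, SE 0.088, adjusted p = 0.00198). Slc8a1 (ENSMUSG00000054640, chr17:81373105-81738377) did not pass the test over all R6/1 mice (log2 fold change 0.38, SE 0.25, adjusted p = 0.259) and is described with the performance groups. Slc8a2 took 75.3% ± 3.08 of the 3 exchangers' sum per kilobase in wt and 62.8% ± 9.16 in R6/1 mice (SD, n = 8 each).

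Among the high-voltage pores Cacna1e, the R-type channel, fell while Cacna1b, the N-type channel of presynaptic terminals, rose. Cacna1e (ENSMUSG00000004110, chr1:154390731-154884501) was at 388, 413, 340.2 and 429 CPM in the wt “good” mice and 373, 387, 399 and 399 CPM in the wt “poor” mice, and at 308, 289, 237 and 339 CPM in the R6/1 “good” mice and 226, 265, 265 and 296 CPM in the R6/1 “poor” mice, without overlap between genotypes (log2 fold change -0.49, SE 0.074, adjusted p = 5.80e-05). Cacna1b (ENSMUSG00000004113, chr2:24603887-24763152) was at 101, 84.99, 92.7 and 109.9 CPM in the wt “good” mice and 102.1, 103, 101 and 112 CPM in the wt “poor” mice, and at 132, 134, 115 and 142 CPM in the R6/1 “good” mice and 107, 129, 119 and 121 CPM in the R6/1 “poor” mice. All 4 R6/1 “good” mice lay above every wt mouse, and R6/1 “poor” mouse 1 lay within the wt range (log2 fold change 0.31, SE 0.063, adjusted p = 0.00104). Cacna1a, the P/Q-type channel, was at 106 ± 9.14 CPM in wt and 99.7 ± 10.5 CPM in R6/1 mice and did not pass the test (log2 fold change -0.088, SE 0.066, adjusted p = 0.327). The share of Cacna1b in the 3 pores' sum per kilobase was 29.04% ± 1.99 in wt and 38.9% ± 1.61 in R6/1 mice, and that of Cacna1e was 44.4% ± 1.86 and 34.02% ± 1.44.

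The L-type pores couple depolarization to gene expression. Cacna1c (ENSMUSG00000051331, chr6:118587240-119196418) was at 116, 100.4, 85.2 and 108 CPM in the wt “good” mice and 99.6, 94.98, 103 and 102.2 CPM in the wt “poor” mice, and at 87.6, 87.6, 76.6 and 98.00 CPM in the R6/1 “good” mice and 71.6, 79.4, 80.5 and 76.4 CPM in the R6/1 “poor” mice. It fell by a small amount (log2 fold change -0.30, SE 0.067, adjusted p = 0.00191), with 3 of the R6/1 “good” mice and none of the “poor” mice inside the wt range. Cacna1d was at 52.7, 44.9, 49.2 and 56.2 CPM in the wt “good” mice and 51.6, 51.8, 55.97 and 58.1 CPM in the wt “poor” mice, and at 57.1, 55.5, 51.9 and 64.8 CPM in the R6/1 “good” mice and 44.6, 56.3, 50.1 and 55.4 CPM in the R6/1 “poor” mice, with the groups in overlap and no call (log2 fold change 0.051, SE 0.067, adjusted p = 0.593). The gene Chdh overlaps 4.67% of the exon bases of Cacna1d on the opposite strand and had 21.9% as many counts, and the strand setting of the counting is not known. Cacna1c held 53.4% ± 2.39 of their sum per kilobase in wt and 47.4% ± 1.43 in R6/1 mice (SD, n = 8 each).

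The T-type pores open at low voltage. Cacna1h (ENSMUSG00000024112, chr17:25374285-25433783) was at 147, 111, 86.1 and 111 CPM in the wt “good” mice and 124, 94.9, 114 and 112 CPM in the wt “poor” mice, and at 57.4, 92.4, 70.7 and 110.4 CPM in the R6/1 “good” mice and 44.1, 74.2, 58.5 and 72.7 CPM in the R6/1 “poor” mice. It fell (log2 fold change -0.63, SE 0.15, adjusted p = 0.00455), and 2 R6/1 “good” mice lay inside the wt range. Cacna1i was at 163, 139, 100.3 and 117 CPM in the wt “good” mice and 117, 111, 116 and 117 CPM in the wt “poor” mice, and at 84.8, 107, 81.2 and 123 CPM in the R6/1 “good” mice and 62.6, 77.8, 72.4 and 96.8 CPM in the R6/1 “poor” mice, again lower with R6/1 “good” mice inside the wt range (log2 fold change -0.48, SE 0.12, adjusted p = 0.00679). Cacna1g, the form known from thalamic relay neurons, did not pass the test over all R6/1 mice (log2 fold change 0.35, SE 0.26, adjusted p = 0.338).

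The auxiliary subunits set how many channels reach the membrane. Cacna2d3 (ENSMUSG00000021991, chr14:28904943-29721864), an extracellular alpha2delta subunit, was at 319.8, 334, 229 and 206 CPM in the wt “good” mice and 267, 228, 269 and 234 CPM in the wt “poor” mice. In R6/1 mice it was at 139.9, 159.7, 137 and 201 CPM in the “good” and 97.01, 128, 109.9 and 117 CPM in the “poor” animals. It fell to 0.522 of the wt level without overlap (log2 fold change -0.94, SE 0.14, adjusted p = 5.64e-05). Cacna2d1, an alpha2delta subunit that binds gabapentin, was at 112, 139, 139 and 163 CPM in the wt “good” mice and 133, 164, 141 and 150.3 CPM in the wt “poor” mice, and at 196, 177, 145 and 169 CPM in the R6/1 “good” mice and 145, 152, 165 and 202 CPM in the R6/1 “poor” mice. It was called higher (log2 fold change 0.24, SE 0.084, adjusted p = 0.0317), but the call was lost in 8 of the 16 fits that left out 1 mouse, where the log2 fold change ran from 0.19 to 0.23. Cacna2d2 (log2 fold change -0.17, SE 0.15, adjusted p = 0.385) and the little expressed Cacna2d4 (log2 fold change -0.26, SE 0.17, adjusted p = 0.241) did not pass the test. Cacna2d3 held 53.7% ± 5.49 of the class per kilobase in wt and 37.2% ± 5.67 in R6/1 mice.

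The cytosolic beta subunits, which bring the pore to the membrane, had 3 of 4 members called lower. Cacnb1 was at 182, 183, 127 and 154 CPM in the wt “good” mice and 136, 142, 128 and 123 CPM in the wt “poor” mice, and at 88.8, 105, 85.1 and 109.8 CPM in the R6/1 “good” mice and 67.9, 91.9, 83.3 and 118 CPM in the R6/1 “poor” mice, without overlap (log2 fold change -0.65, SE 0.11, adjusted p = 0.000223). Cacnb3 was at 193, 186, 155 and 260.4 CPM in the wt “good” mice and 209, 199.9, 148 and 181 CPM in the wt “poor” mice, and at 151, 127, 92.3 and 116 CPM in the R6/1 “good” mice and 90.1, 106, 98.99 and 178 CPM in the R6/1 “poor” mice. It fell (log2 fold change -0.67, SE 0.14, adjusted p = 0.00164), although R6/1 “good” mouse 1 and R6/1 “poor” mouse 4 lay inside the wt range. Cacnb2 was called lower by a small margin (log2 fold change -0.24, SE 0.082, adjusted p = 0.0292), and Cacnb4 missed the threshold by edgeR (log2 fold change -0.17, SE 0.068, adjusted p = 0.0587) and passed it by DESeq2 (adjusted p = 0.0469). Without wt “good” mouse 1, wt “good” mouse 2 or R6/1 “poor” mouse 2 the call of Cacnb2 was lost, with log2 fold changes of -0.19, -0.20 and -0.23.

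The 5 genes of the gamma class are named as calcium channel subunits, but all of them are known as auxiliary subunits of AMPA receptors. Of these, Cacng2 (stargazin), Cacng3 and Cacng4 fell. Cacng4 (ENSMUSG00000020723, chr11:107732357-107794557) was at 178, 215, 126 and 128 CPM in the wt “good” mice and 139, 137, 140.5 and 119 CPM in the wt “poor” mice, and at 54.1, 71.03, 63.7 and 94.01 CPM in the R6/1 “good” mice and 66.7, 59.4, 62.4 and 61.1 CPM in the R6/1 “poor” mice. Its level was 2.22 times lower without overlap (log2 fold change -1.15, SE 0.13, adjusted p = 3.65e-06). Cacng3 was at 111, 139, 85.6 and 109.8 CPM in the wt “good” mice and 88.1, 99.1, 85.8 and 76.1 CPM in the wt “poor” mice, and at 67.4, 63.1, 50.1 and 65.99 CPM in the R6/1 “good” mice and 40.6, 55.9, 49.3 and 74.95 CPM in the R6/1 “poor” mice. The genotypes did not overlap, although R6/1 “poor” mouse 4 came close to the lowest wt mouse (log2 fold change -0.77, SE 0.13, adjusted p = 0.000273). Cacng2 fell by 0.43 on the log2 scale (SE 0.077, adjusted p = 0.000338). Cacng8 (log2 fold change 0.05, SE 0.091) and Cacng5 (0.13, SE 0.22) did not pass the test.

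Of the 4 store-operated genes, 1 fell, 1 was called higher and 2 did not pass the test. The STIM proteins are the sensors of the store. Stim2 was at 54.7, 72.7, 57.1 and 60.6 CPM in the wt “good” mice and 56.1, 60.9, 61.7 and 58.2 CPM in the wt “poor” mice, and at 51.4, 53.9, 49.6 and 55.2 CPM in the R6/1 “good” mice and 46.7, 46.5, 51.03 and 55.8 CPM in the R6/1 “poor” mice. It fell (log2 fold change -0.23, SE 0.059, adjusted p = 0.00483), with 2 R6/1 mice inside the wt range. Stim1 was at 131, 125, 114 and 119 CPM in the wt “good” mice and 129, 114, 126 and 123 CPM in the wt “poor” mice, and at 152, 144, 124 and 158 CPM in the R6/1 “good” mice and 116, 137, 129.8 and 133 CPM in the R6/1 “poor” mice. It was called higher just under the threshold (log2 fold change 0.16, SE 0.059, adjusted p = 0.0463), a call that was lost in 12 of the 16 fits that left out 1 mouse. Neither Orai1 (log2 fold change -0.0087, SE 0.11) nor Orai2 (-0.16, SE 0.078), which form the channel, passed the test.

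**Figure D2:**
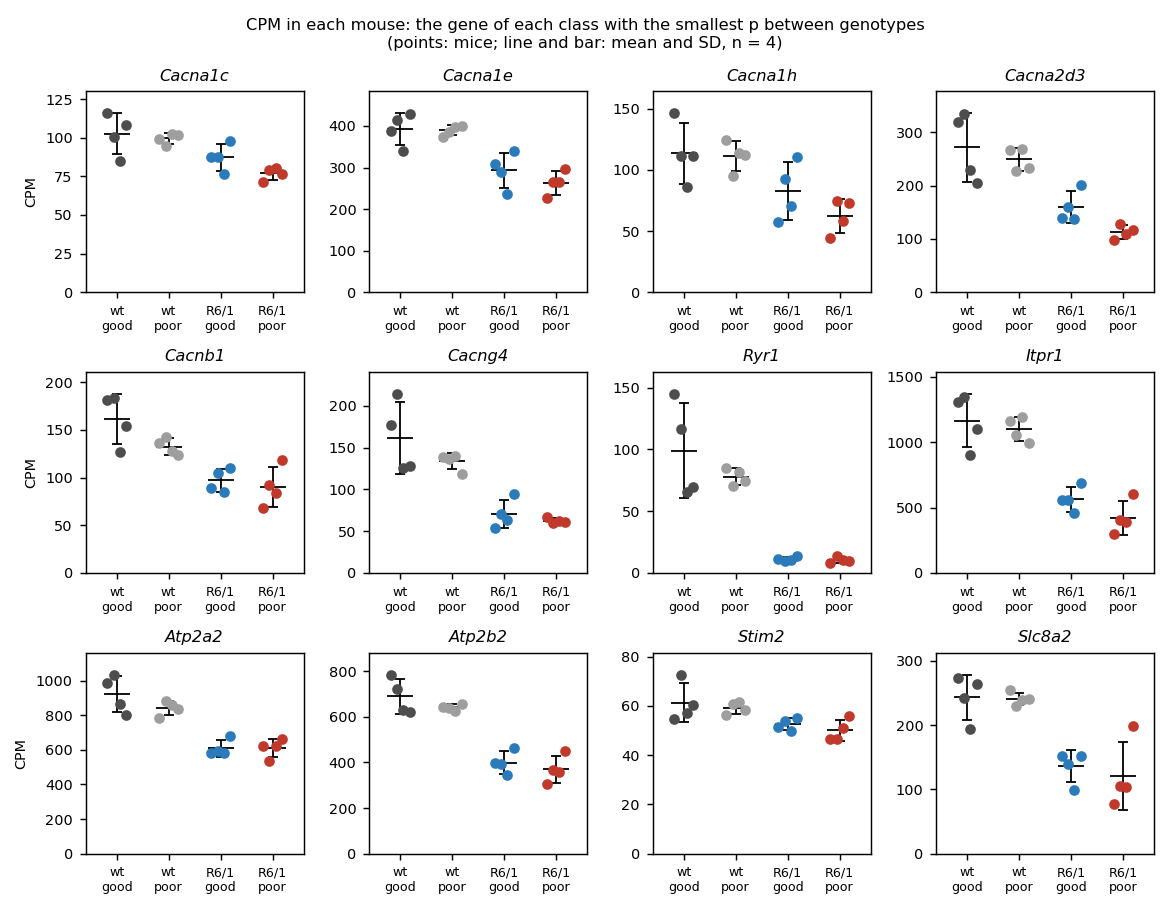
CPM (vertical axes, each starting at 0) of 12 genes in each mouse by group, 1 gene per class, with the mean and SD of the 4 mice as a line and bar. In Cacna1e, Cacna2d3, Cacnb1, Cacng4, Ryr1, Itpr1, Atp2a2 and Atp2b2 all 8 R6/1 points sit below all 8 wt points, and in Slc8a2 R6/1 “poor” mouse 4, at 199 CPM, stands apart from the other R6/1 mice.

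**Figure D3:**
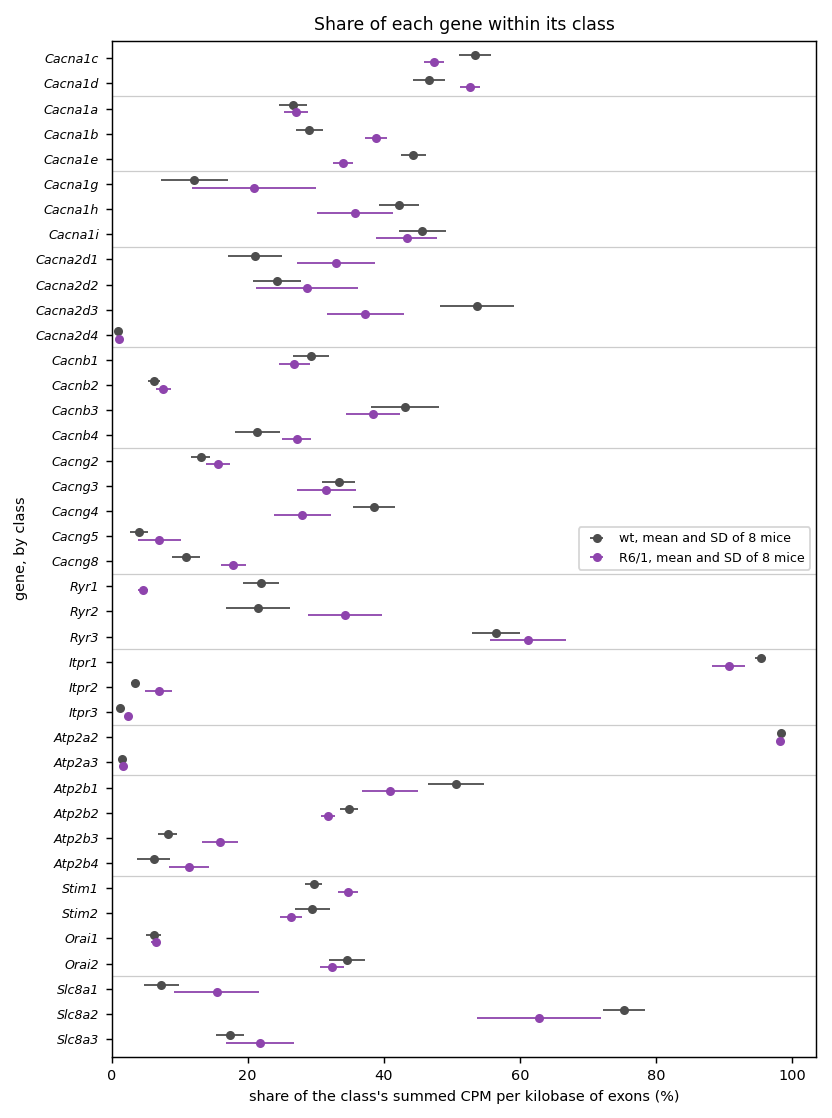
Share of each gene in the summed CPM per kilobase of exons of its class (horizontal axis, percent), as the mean and SD of the 8 wt (grey) and the 8 R6/1 (purple) mice. Ryr1, Cacna1e, Cacna2d3, Cacng4 and Atp2b1 hold a smaller share in R6/1 mice, and Cacna1b, Cacna2d1, Ryr2 and Atp2b3 a larger one.

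Each R6/1 group was also set against the same 8 wt mice. In R6/1 “good” mice 15 of the 40 genes were lower and 3 higher (Cacna1b, Atp2b3 and Stim1), against 12.4% and 12.1% of all genes (24.6% in either direction). All 4 of these mice are in libraries 1 to 8. With the library set as a covariate 17 of the 40 genes were lower and 1 higher, beside 2022 and 1948 of all 19363 genes. In that fit Atp2b3 (adjusted p = 0.161) and Stim1 (adjusted p = 0.109) were no longer called by edgeR. In R6/1 “poor” mice 20 were lower and 3 higher (Cacna1b, Atp2b3 and Slc8a1), against 14.9% and 13.5% of all genes (28.5% in either direction). Both comparisons use the same wt mice, so they are given side by side and their agreement is no result of its own. Ryr1 had a log2 fold change of -2.99 (SE 0.25) in “good” and -3.09 (SE 0.26) in “poor” mice. Itpr1 had -1.004 (SE 0.12) and -1.43 (SE 0.17), Cacna2d3 -0.71 (SE 0.14) and -1.21 (SE 0.13), and Atp2b1 -0.82 (SE 0.12) and -1.12 (SE 0.14). By edgeR, Cacna1c, Cacna1h, Cacna1i, Ryr3 and Stim2 passed the test in “poor” mice and missed it in “good” mice, where Cacna1h, for example, had -0.44 (adjusted p = 0.0677) against -0.85 (adjusted p = 0.00105) in the “poor” group. DESeq2 called 22 of the 40 genes in “good” mice, among them Cacna1c, Cacna1h, Ryr3 and Stim2 (adjusted p = 0.0431, 0.0223, 0.039 and 0.0355), and 25 in “poor” mice. Of all 19363 genes it called 5134 in “good” and 6012 in “poor” mice. Whether the groups differ is answered only by their direct comparison. The CPM of all 4 R6/1 mice lay below those of all wt mice for 12 genes in the “good” and 15 genes in the “poor” group, where 7.76% and 8.85% of all genes did so. They lay above for 1 gene, Cacna1b, in the “good” and for 0 genes in the “poor” group, where 7.46% and 7.25% of all genes did so. With 1 mouse left out, the calls of Atp2b3 in either group and of Atp2a3 in the “good” group were lost in 7, 7 and 9 of 12 fits. Libraries 1 to 8 hold 1 R6/1 “poor” and 3 wt mice. Within them the median log2 fold change of the 40 genes in that R6/1 mouse was -0.33, and over all genes it was 0.0014.

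**Figure D4:**
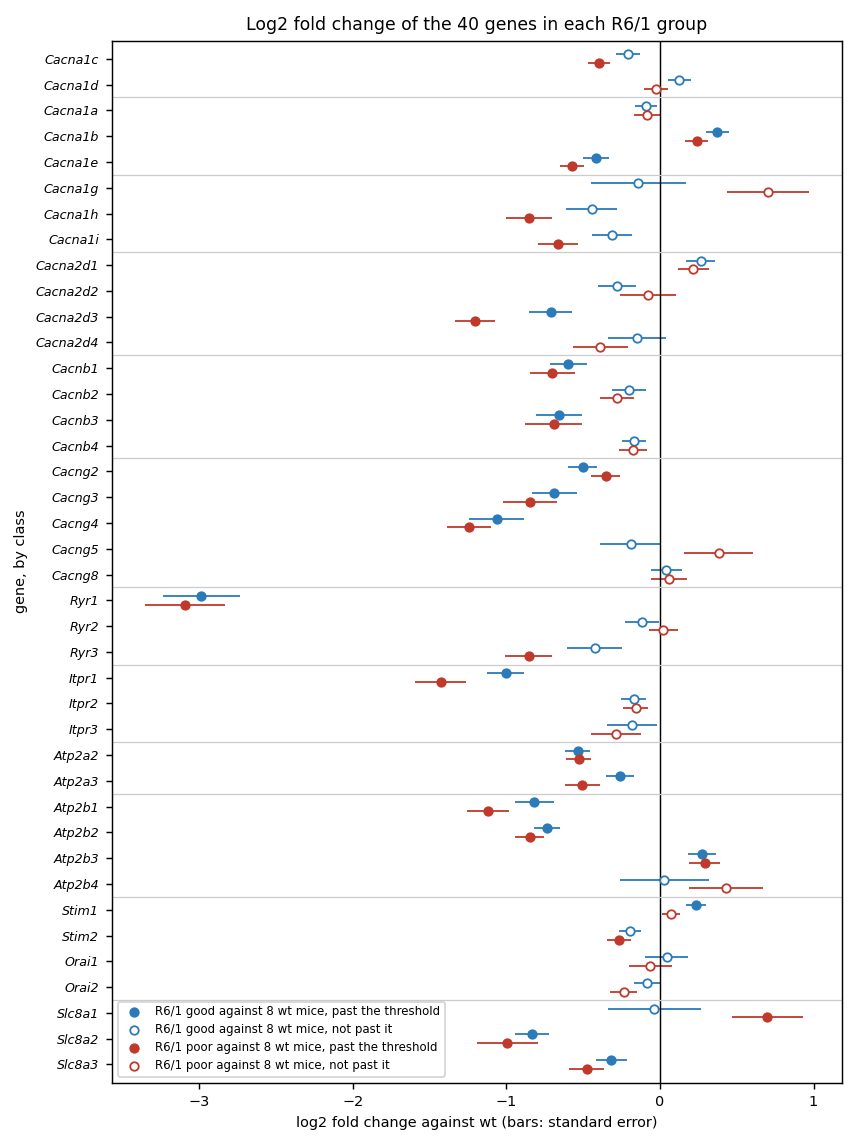
Log2 fold change against the 8 wt mice (horizontal axis; bars are standard errors) of the 40 genes in R6/1 “good” (blue) and R6/1 “poor” (red) mice; filled points passed the threshold. Most points lie left of 0, and Cacna1g and Slc8a1 lie right of 0 in the “poor” and left of 0 in the “good” group, at 0.70 and 0.70 in the “poor” group.

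Setting the R6/1 “poor” against the R6/1 “good” animals asked whether worse performance went with a different level of these genes. By edgeR none of the 40 genes and none of the 19363 genes passed the threshold, with a smallest adjusted p of 0.248. At an unadjusted p under 0.05 there were 5 of the 40 genes, and 15.5% of all genes, so the share of the calcium genes was near the background. With the library set as a covariate, this comparison rested on R6/1 “poor” mouse 2. It is the only “poor” mouse in the library set that holds the “good” mice. The performance estimate of that fit is therefore the difference of 1 “poor” mouse from the “good” mice. It cannot be told apart from what is particular to that mouse. The median log2 fold change of the 40 genes was -0.074 in that fit, and the part of the library set was not tested. DESeq2, the tool the study used, called 2 of the 40 genes, Cacna1g higher and Cacna2d3 lower, and 1.84% of all genes (356). The log2 fold change was negative for 27 of the 40 genes (67.5%) with a median of -0.09, and for 50.2% of all genes. The median was -0.019 without R6/1 “poor” mouse 1 and -0.037 without R6/1 “good” mouse 4.

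Cacna1g (ENSMUSG00000020866, chr11:94408391-94474198) encodes the T-type pore left out above. It was at 18.9, 17.3, 40.7 and 53.7 CPM in the wt “good” mice and 23.2, 31.3, 33.9 and 42.4 CPM in the wt “poor” mice. In R6/1 mice it was at 32.9, 31.7, 36.6 and 17.5 CPM in the “good” and 63.3, 44.4, 56.8 and 48.6 CPM in the “poor” animals, so that every “poor” mouse lay above every “good” mouse, as 2.45% of all genes did (6.45% in either direction). The log2 fold change was 0.86 (SE 0.22), with an adjusted p = 0.248 by edgeR and 0.00971 by DESeq2. R6/1 “poor” mice 1 and 3 lay above every wt mouse and mice 2 and 4 lay inside the wt range, and against all wt mice the difference missed the threshold by edgeR (log2 fold change 0.70, SE 0.27, adjusted p = 0.0678) and passed it by DESeq2 (log2 fold change 0.71, adjusted p = 0.0195). Among the wt “good” mice the level spanned more than 3 times, from 17.3 to 53.7 CPM.

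Slc8a1, the exchanger best known from the heart, was at 44.2, 51.8, 107 and 102.0 CPM in the wt “good” mice and 66.4, 97.8, 80.5 and 111 CPM in the wt “poor” mice. In the R6/1 mice it was at 116, 70.8, 92.00 and 43.6 CPM in the “good” and 144, 109, 153 and 131 CPM in the “poor” animals, where only R6/1 “good” mouse 1 overlapped with the “poor” group. The log2 fold change was 0.75 (SE 0.27, adjusted p = 0.281), and against all wt mice Slc8a1 was higher in R6/1 “poor” mice (log2 fold change 0.70, SE 0.23, adjusted p = 0.0376). That call was lost without R6/1 “poor” mouse 1, 3 or 4 or wt “poor” mouse 1 or 3, with log2 fold changes from 0.63 to 0.71.

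Cacna2d3 and Ryr3 were lower in every “poor” than in every “good” R6/1 mouse, as 4.0% of all genes were. Cacna2d3 reached 128 CPM at most in “poor” mice, and its lowest “good” mouse was at 137 CPM (log2 fold change -0.48, SE 0.13, adjusted p = 0.248 by edgeR and 0.0296 by DESeq2). Ryr3 reached 114 CPM at most in “poor” mice, and its lowest “good” mouse was at 121 CPM (log2 fold change -0.41, SE 0.13, adjusted p = 0.255 by edgeR). The gap was narrow in both, and without R6/1 “good” mouse 4, the highest “good” mouse for both genes, the log2 fold changes were -0.35 and -0.25. Cacna1c, the last of the 5 genes, was at 87.4 ± 8.75 CPM in “good” and 76.96 ± 3.97 CPM in “poor” mice (SD, n = 4 each; log2 fold change -0.17, SE 0.076), and its log2 fold change ran from -0.22 to -0.11 with 1 mouse left out, the latter without R6/1 “good” mouse 4.

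Library number and the levels of marker genes are given beside these differences. Within libraries 1 to 8, where R6/1 “poor” mouse 2 is the only “poor” mouse and is assumed to vary like the others, the log2 fold change was 0.59 (SE 0.38) for Cacna1g, 0.44 (SE 0.51) for Slc8a1, -0.30 (SE 0.21) for Cacna2d3 and -0.34 (SE 0.27) for Ryr3. These keep their sign, and each is smaller in size than over all 8 mice. The summed CPM of 6 thalamic markers spanned 122 to 284 among R6/1 “good” and 128.5 to 394 among R6/1 “poor” mice, and that of 5 hypothalamic markers spanned 3.83 to 5.9 and 4.42 to 32.1. The other 3 hypothalamic markers, Oxt, Hcrt and Pmch, were under the filter, with medians of 0.5, 1 and 1 counts. R6/1 “poor” mouse 1, the highest for Cacna1g, had the highest sums of both lists, 394 and 32.1 CPM. R6/1 “poor” mouse 2 had sums of 177.9 and 6.81 CPM, with Cacna1g at 44.4 and Slc8a1 at 108.7 CPM. R6/1 “poor” mouse 3 had sums of 210.5 and 21.4 CPM, with Cacna1g at 56.8 and Slc8a1 at 153 CPM. R6/1 “poor” mouse 4 had 128.5 and 4.42 CPM, inside the ranges of the “good” mice. It had Cacna1g at 48.6 and Slc8a1 at 131 CPM, and its summed cortical markers, 831 CPM, were the highest of the “poor” mice. DESeq2 called none of the 6 thalamic markers (smallest adjusted p = 0.478), and gave 1 of the 5 hypothalamic markers, Trh, an adjusted p (0.116) and the other 4 none. At an unadjusted p under 0.05 by edgeR there were 0 of the thalamic and 3 of the hypothalamic markers. The 8 cortical markers spanned 58.4 to 535 summed CPM among “good” and 93.5 to 831 among “poor” animals, and the 6 ependymal markers 17.4 to 29.2 and 22.4 to 48.3. The summed markers of medium spiny neurons were lower in every “poor” (1351 to 2006 CPM) than in every “good” R6/1 mouse (2112 to 3396 CPM). DESeq2 called 7 of these 10 markers lower between these groups, among them Drd2 (log2 fold change -0.82, adjusted p = 0.00722) and Penk (log2 fold change -0.51, adjusted p = 0.00967), and edgeR, which called no gene here, gave 9 of the 10 an unadjusted p under 0.05. The 6 summed markers of pericytes and smooth muscle did not overlap either, at 218 to 235 CPM in “good” and 167 to 204 CPM in “poor” mice. DESeq2 called 1 of them lower, and 3 had an unadjusted p under 0.05 by edgeR. Of the 6 endothelial markers DESeq2 called 0, and 3 had such a p by edgeR. The part of all these markers and of the library number in the differences was not tested. Without R6/1 “poor” mouse 1, the log2 fold change of Cacna1g was 0.76 (SE 0.23).

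**Figure D5:**
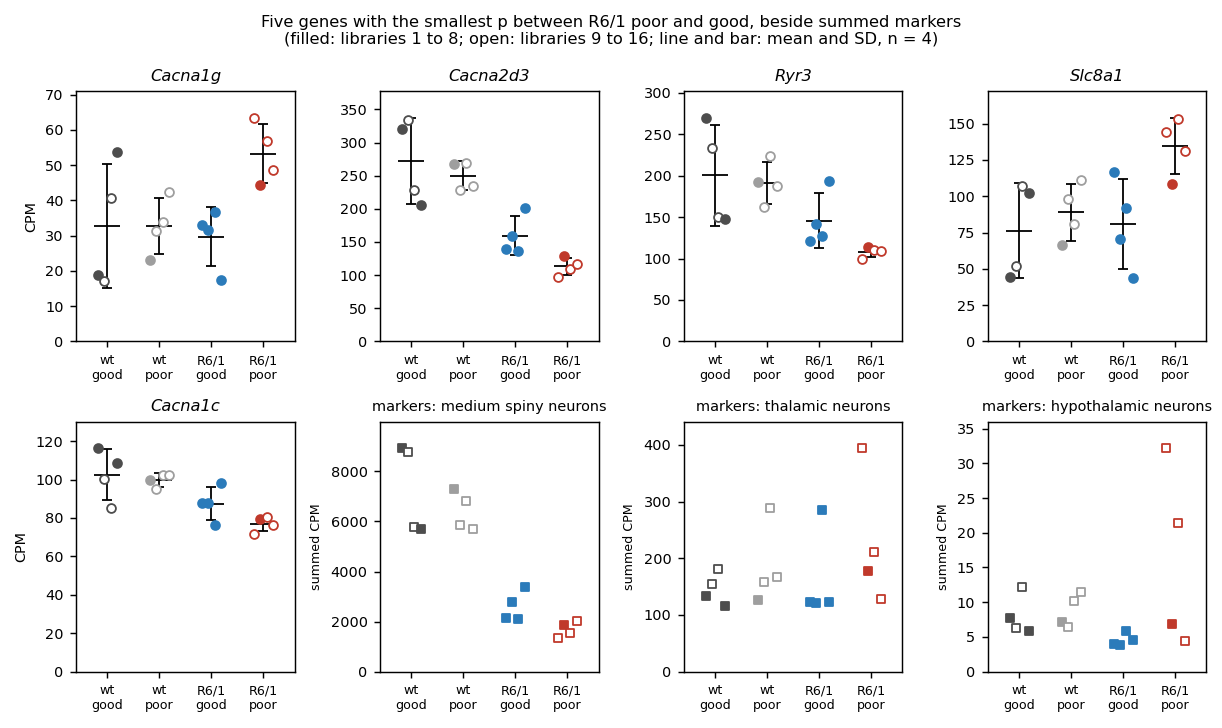
CPM of Cacna1g, Cacna2d3, Ryr3, Slc8a1 and Cacna1c (circles, with the mean and SD of 4 mice as a line and bar) and summed CPM of 3 marker lists (squares) in each mouse by group; filled symbols are libraries 1 to 8, open symbols libraries 9 to 16. The 4 R6/1 “good” mice are all filled and 3 of the 4 R6/1 “poor” mice are open, and Cacna1g is higher in all 4 “poor” than in all 4 “good” R6/1 mice.

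Among wt mice performance made no difference that passed the test. By edgeR none of the 40 genes was called between wt “poor” and wt “good” mice, DESeq2 called none of them either, and 4 of the 40 had an unadjusted p under 0.05 (Cacna1a, Cacnb1, Cacng2 and Cacng3, with log2 fold changes of -0.20, -0.28, -0.22 and -0.35) beside 472 of all 19363 genes. Much of the spread in wt mice lay within the “good” group. Its mice 1 and 2 had Ryr1 at 145 and 117 CPM and Ryr3 at 269 and 233 CPM, its mice 3 and 4 had Ryr1 at 65.1 and 69.3 and Ryr3 at 150.1 and 148 CPM, and the summed medium spiny markers of these 4 mice were 8918, 8771, 5783 and 5698 CPM in the same order. Cacna1g, Slc8a1 and Atp2b4 ran the other way, with Atp2b4 at 54.3, 76.97, 121 and 166 CPM in wt “good” mice 1 to 4. The summed cortical markers of these mice were 49.6, 146, 298 and 760.2 CPM, and their part in these values was not tested. The library sets do not follow this split, since mice 1 and 4 belong to libraries 1 to 8 and mice 2 and 3 to libraries 9 to 16. The deposited labels of wt “good” mice 1 and 2 are 8 and 8b. What the letter means is not stated, and whether these 2 libraries are related was not tested.

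The interaction of genotype and performance, which asks whether the step from “good” to “poor” differs between R6/1 and wt mice, passed the test for none of the 40 genes by edgeR or DESeq2, and 1 of the 40, Cacng2, had an unadjusted p under 0.05 (log2 difference 0.37, SE 0.13), beside 1118 of all 19363 genes. For Cacna1g the difference was 0.84 (SE 0.47, adjusted p = 0.826), so that the step in R6/1 mice was not shown to differ from the step in wt mice.

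Genes that work with these channels and pumps were counted by direction between R6/1 and wt mice, beside the 17.0% of all genes called lower and 17.2% called higher. Of 25 tested genes of other channels, pumps and exchangers 8 were lower and 3 higher. The lower genes included the potassium-dependent exchangers Slc24a2 (-0.52) and Slc24a4 (-0.84), the channel Orai3 (-0.33) and the mitochondrial exchanger Slc8b1 (-0.45), and the sodium leak channel Nalcn rose by 0.39 on the log2 scale. Of 27 genes of calmodulin, its kinases, calcineurin and calcium buffers 16 were lower and 1 higher. Here the neuronal calcium sensor Hpca had a log2 fold change of -1.31, the calmodulin-binding Pcp4 -1.42, the kinase Camk4 -1.27 and the calcineurin subunit Ppp3ca -1.11, and Camk2g was the one that rose (0.26). Of 29 tested genes of IP3 metabolism and of partners of the store 13 were lower and 3 higher. The IP3 kinase Itpka fell by 1.33, the scaffold Homer1 by 1.45, the phospholipase Plcb1 by 0.73 and the junctophilin Jph4, which ties the reticulum to the plasma membrane, by 0.71 on the log2 scale, and Gnaq, Itpkc and Fkbp1b rose (0.19, 0.43 and 0.51). Between R6/1 “poor” and “good” mice, where edgeR called no gene, DESeq2 called 5 genes of the 3 lists, with 25, 27 and 29 tested. It called 1.84% of all genes (356). The 5 genes are named here after their values were seen. Camk1g, a calmodulin kinase, Slc24a3, a potassium-dependent exchanger, the scaffold Homer2 and the chaperone Canx were higher (log2 fold changes 0.72, 0.41, 0.61 and 0.31, adjusted p = 0.000305, 0.0253, 0.0443 and 0.0444), and Pcp4 was lower (-0.59, adjusted p = 0.0142).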

How the data were processed

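Striatal mRNA of 16 mice was sequenced by the authors with a stranded kit and paired ends and mapped to GRCm38 with TopHat 1.0.1, and CASAVA and Bowtie are named, with no version, in the submitters' processing notes. Raw counts per gene were deposited by the authors as whole numbers, not normalized. How reads were counted, with which strand setting and annotation, is not given in the sources used here, and genes that overlap on opposite strands may share reads. All columns of the table were used.

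Genes were matched by Ensembl identifier to GENCODE vM21, which holds all 55450 identifiers. The 40 members, their 12 classes, the 3 lists of related genes and the 12 lists of cell type markers were chosen with earlier results of these data known. All 40 members are named with their difference between genotypes, and CPM of every mouse are given for the 2 of each class with the smallest p between genotypes, for the 5 with the smallest p between R6/1 “poor” and “good” mice, and for Cacna1g. The 19363 genes that reached 10 counts in 4 or more libraries were tested with the quasi-likelihood test of edgeR 4.0.16 (R 4.3.3; TMM factors, robust dispersions, Benjamini-Hochberg adjustment, threshold 0.05), each comparison on its own groups and the interaction on all 16 libraries. Each replicate is 1 mouse by the study's account. DESeq2 1.42.0, other factors and filters, 1 fit of all groups, replicate number as a block, the library sets and leaving out each mouse were alternatives. The DESeq2 calls of the lists between R6/1 “poor” and “good” mice were added after the data were seen. Counts simulated with 200 changed genes were tested first. For all R6/1 against all wt mice, over 19363 genes, edgeR recovered 91.0% of the changed genes, with all 66 of the 66 genes changed 3-fold. For R6/1 “poor” against “good” mice it recovered 70.5%. The simulated counts had the same dispersion for every gene and no effect of the library set beyond total counts. The share that edgeR would recover in the measured counts was not tested. Replicate numbers did not pair the mice: over 24 pairs of mice with the same number the correlation of deviations ran from -0.35 to 0.23.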

Additional observations from a re-analysis of the deposited data

Results flagged for a closer look

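In 3 of the 160 groups of 4 mice (40 genes in 4 groups) 1 mouse stood apart by Dixon's criterion, its gap to the next mouse taking most of the group's range, and chance alone gives about 1 in 20, or 8 groups. Cacnb4 was at 223.1 CPM in R6/1 “poor” mouse 4, with 177.5 CPM in the next mouse; the summed cortical markers of mouse 4 were 831.4 CPM, against 93.51 to 227.1 CPM in the other R6/1 “poor” mice, and their part in this value was not tested. Itpr3 was at 4.701 CPM in R6/1 “poor” mouse 1, with 6.283 CPM in the next. Atp2a2 was at 679.7 CPM in R6/1 “good” mouse 4, with 595.5 CPM in the next. None of the 40 genes passed the test of the interaction between genotype and performance.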

How the results depend on the processing

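The number of the 40 genes called between all R6/1 and all wt mice (26) ran from 23 to 25 when 1 mouse was left out. It was 27 with DESeq2 and 24 with no filter on low counts. Within libraries 9 to 16 alone it was 17, all 17 of them lower. There fewer mice enter and every R6/1 mouse is “poor”, so this is the comparison of R6/1 “poor” with wt mice. Over all 19363 genes the calls between all R6/1 and all wt mice were 6620, with 6934 by DESeq2 and 3401 within libraries 9 to 16. With no filter they were 5762 of 40830 genes. For R6/1 “good” mice (18) the number of the 40 genes called ran from 14 to 20 with 1 mouse left out. For R6/1 “poor” mice (23) it ran from 19 to 25. Between R6/1 “poor” and “good” mice edgeR called 0 under every alternative that could be run, and DESeq2 called 2. With the replicate block the counts were 24, 20, 23, 0, 0 and 0 for the 6 comparisons in the order all R6/1, R6/1 “good” and R6/1 “poor” against wt, R6/1 “poor” against “good”, wt “poor” against “good” and the interaction; 5 of the 24 pairs of mice with the same number had a correlation over 0.1, so the numbers do not pair the mice. The comparison of R6/1 “good” mice with wt or with “poor” mice and the interaction could not be fitted within libraries 9 to 16, which hold no R6/1 “good” mouse. Over all 40 genes, comparisons and alternatives (4960 values), 145 calls were lost, 48 were gained and 0 called genes turned. Over all genes the calls between R6/1 “poor” and “good” mice were 0 by edgeR, 28 with no filter, 96 with the replicate block, 61 without R6/1 “poor” mouse 2, 99 without R6/1 “poor” mouse 4 and 356 by DESeq2. The cause of these differences was not tested.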
